A study of Mus musculus with 8 samples.

Results

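The response of C3H10T1/2 cells to either form of the Indian hedgehog signalling domain was examined at the level of mature microRNAs (miRNAs). C3H10T1/2 is a mouse mesenchymal cell line that can be driven toward cartilage, bone or fat and is a common test cell for hedgehog ligands. The 4 RNA samples from cells induced with IhhN, the amino-terminal signalling part of the ligand, were taken as 1 group, 2 of them induced with wild type IhhN (WT) and 2 with E95K mutant IhhN (MT), and were set against the 2 RNA samples whose induction was given as none (control). These are all 6 RNA samples and all 8 arrays of the series, since both WT samples were hybridised on 2 technical arrays. The proteins were recombinant human IHH-N added to the medium at 750 nM for 48 h. The control cells were kept for the same 48 h, and their sample label also repeats the 750 nM although no protein is named. The labels do not say that the samples came from separate cultures, and the study's methods mention repeated inductions without tying them to these arrays, so p-values measure only the spread between these samples, which may be technical.

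Hedgehog ligands bind Patched, which releases Smoothened and lets Gli transcription factors act on their targets. Indian hedgehog is made by chondrocytes of growing cartilage and sets the pace at which they proliferate and mature. miRNAs are short RNAs that guide a silencing complex to messenger RNAs mainly through bases 2 to 8, the seed, so that miRNAs with the same seed form a family with largely the same targets. The arrays hold probes for miRNAs and none for Gli1 or Patched messenger RNA, so pathway activity itself was not measured here.

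Of 611 mouse miRNAs on the array, 449 were detected on no array and 142 were detected on all arrays of at least 1 of the 3 groups, and these 142 were tested. In the pooled limma comparison 46 passed an adjusted p of 0.05 (32.4% of those tested), 28 higher with IhhN (19.7%) and 18 lower (12.7%). The higher ones included let-7a to let-7d, miR-214-3p, miR-455-3p and miR-574-5p, and the lower ones miR-21-5p, miR-19b-3p, miR-301a-3p and miR-29b-3p. Changes were small. Leaving aside miR-195-5p, which was at the floor of the scale in every induced sample, the folds lay between 1.30 and 2.08, and 2 miRNAs, miR-19b-3p and miR-301a-3p, changed by more than 2-fold. For all 46, the 4 samples with a protein lay on 1 side of both controls, which held for 79 of the 142 tested (55.6%).

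These calls were close to the threshold, with a smallest adjusted p of 0.028, and many settings gave none. Fitting WT and MT as separate groups and testing their mean against control gave 0 calls, with 62 miRNAs at an unadjusted p under 0.05 against 69 in the pooled comparison. Leaving out any single RNA sample other than WT replicate 2 also gave 0 calls, while without WT replicate 2 there were 55. Keeping the spots marked as outliers by the scanner software, testing all 611 miRNAs, leaving out the 2 arrays in column 1 of the slide, or adding a term for the left or right side of the slide each gave 0 calls as well. All 46 kept their direction in each of these fits. For separate groups, all 611 miRNAs, a sample left out and the side term this was fixed in advance. The reason is that the induced samples of all 46 lay on the same side of both controls. With the side term only WT replicate 2 is set against the controls, since no control lay on the left side.

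**Figure D1:**
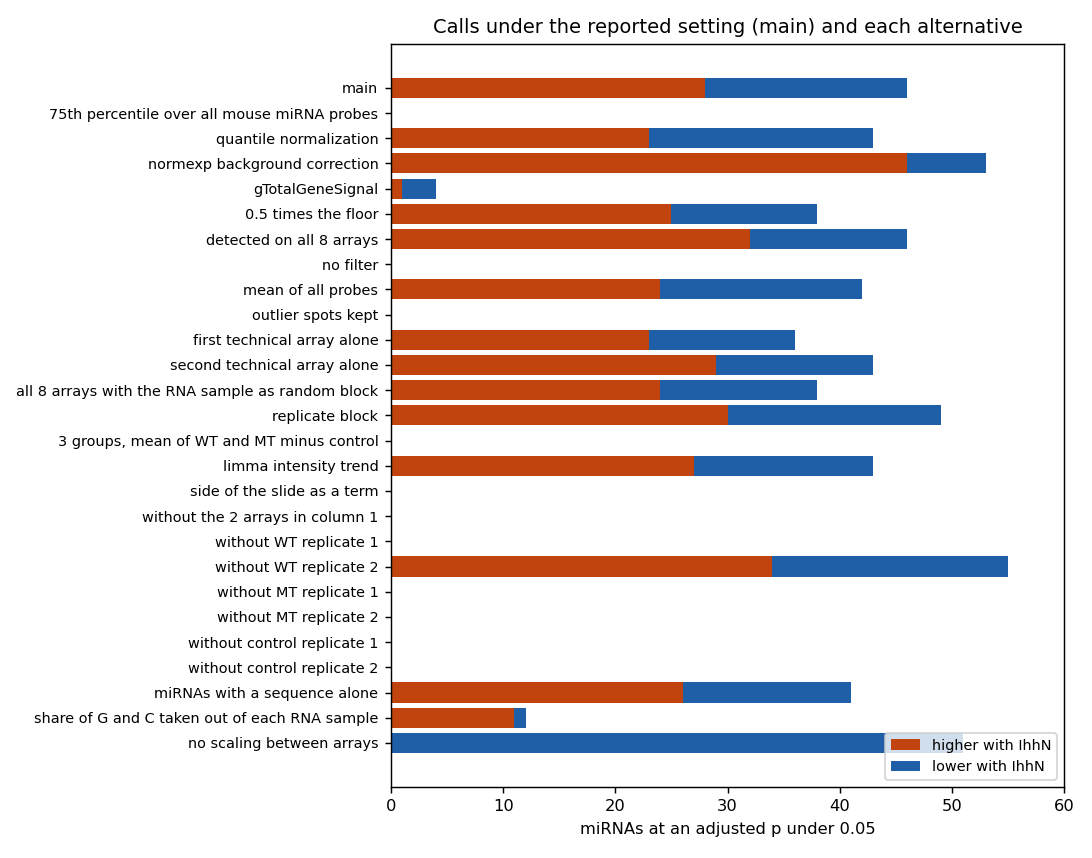
Number of miRNAs at an adjusted p under 0.05 (horizontal axis) in the pooled comparison of either IhhN against control, under the reported setting (main) and each alternative, split into higher and lower with IhhN. The reported setting gave 28 higher and 18 lower, and 11 of the 26 alternatives have no bar because they gave 0 calls. With no scaling all 51 calls were lower.

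Arrays were brought to a common scale at the 75th percentile, taken over 174 probes that every array detected, and levels are given as log2 of that scaled signal, with a floor at 3.97 for values below detection. On this scale the median difference over the 142 miRNAs was 0.11. Scaling by the 75th percentile over all mouse probes instead moved that median to -0.37, a shift of -0.48, and gave 0 calls. Under it all 18 lower miRNAs stayed below 0 but 17 of the 28 higher ones stayed above 0. Relative to the median of the 142, all 28 higher and all 18 lower miRNAs kept their side under both scalings. That was nearly fixed in advance. Apart from values at the floor, another scaling moves every difference by the same amount, and the median moves with them. The percentile used for scaling, in unscaled signal units, was 785 and 606 on the control arrays and between 432 and 565 on the 6 others. With no scaling at all, an alternative added after seeing the data, the median over the 142 was -0.43 and 51 miRNAs passed, 0 higher and 51 lower. The 18 lower miRNAs were all among them, with a median of -1.12. The 28 higher miRNAs had a median of -0.02, and 0 of them had all 4 induced samples above both controls. Their rises, below, are therefore rises relative to the miRNAs that set the scale.

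As an example, the unscaled signal of miR-21-5p was 1829 and 3184 with WT, 2089 and 2837 with MT, and 6778 and 5859 in the controls. That of let-7b-5p was 3874 and 3867 with WT, 4125 and 3529 with MT, and 4044 and 3537 in the controls. The first was lower with IhhN before any scaling, and the second overlapped. Whether a fall of one set or a rise of the other took place in absolute amounts therefore cannot be told apart on these arrays, and in bulk RNA fewer cells of a type and less RNA per cell cannot be told apart either.

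Arrays also differed in sensitivity and position. All 8 lay on 1 slide, with WT in row 1 and MT and control in row 2, and with WT replicate 1 and both MT samples on the left side and WT replicate 2 and both controls on the right. Between 104 and 150 mouse miRNAs were detected per array. The fewest, 104, 106 and 117, were on the first array of WT replicate 1, on MT replicate 1 and on the second array of WT replicate 1. The spread of the negative control spots was 6.63 and 5.61 signal units on the 2 arrays in column 1 (WT replicate 1, first array, and MT replicate 1) and between 2.91 and 3.76 on the rest. WT replicate 2 was the only induced sample on the side of the controls. Its differences from the control mean had a median of 0.43 over the 28 higher miRNAs and -0.36 over the 18 lower ones, against 0.52 to 0.67 and -0.75 to -0.48 in the other 3 induced samples. With a term for side in the fit, the difference is that of WT replicate 2 from both controls, since no control lay on the left. Its median over the 142 was 0.13. That fit therefore cannot tell whether side accounts for the differences of the other induced samples.

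The cells carried the miRNAs of a mesenchymal line. Of 9 mesenchymal marker miRNAs on the array 7 were tested, namely miR-21-5p, miR-143-3p, miR-145-5p and both arms of miR-199a and miR-214, and 2 of them rose and 1 fell. None of the markers of muscle (4 on the array), blood cells (6), epithelium (10), endothelium (2) or liver (1) was detected on any array. Of 6 nerve cell markers only miR-128-3p was detected, and of 22 embryonic stem cell markers only miR-290-3p. The summed mesenchymal signal was 12.2 to 12.7 on the log2 scale with IhhN and 12.8 to 12.9 in control. miR-21-5p, the 1 that fell, was the brightest of the 7 in every sample and weighs most in that sum. The median difference of the 7 was 0.13.

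The mature sequences behind the clearest contrasts are given here, written 5′ to 3′ from RefSeq (GRCm38.p6) with the seed in capitals. A sequence was matched for 118 of the 142 miRNAs tested and for 40 of the 46 called. The first lines hold the 3 lower and 3 higher miRNAs with the largest differences.
miR-19b-3p: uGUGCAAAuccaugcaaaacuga
miR-301a-3p: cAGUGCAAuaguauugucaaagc
miR-29b-3p: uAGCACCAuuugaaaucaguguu
miR-574-5p: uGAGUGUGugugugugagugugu
miR-494-3p: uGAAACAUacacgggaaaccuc
miR-1187: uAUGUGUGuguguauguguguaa

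Next come families in which members with the same seed were not called the same way. The miR-148 and miR-152 family, the miR-93 and miR-106b family, the miR-15 and miR-16 family, the miR-29 family and the miR-30 family are shown for that reason.
miR-148a-3p: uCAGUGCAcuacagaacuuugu
miR-148b-3p: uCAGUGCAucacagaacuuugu
miR-152-3p: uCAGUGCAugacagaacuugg
miR-106b-5p: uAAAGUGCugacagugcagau
miR-93-5p: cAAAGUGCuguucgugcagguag
miR-20a-5p: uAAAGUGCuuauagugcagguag
miR-15a-5p: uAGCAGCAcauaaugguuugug
miR-16-5p: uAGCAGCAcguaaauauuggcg
miR-15b-5p: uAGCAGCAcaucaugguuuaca
miR-322-5p: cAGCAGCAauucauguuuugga
miR-29a-3p: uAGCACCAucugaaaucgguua
miR-29c-3p: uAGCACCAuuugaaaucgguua
miR-30a-5p: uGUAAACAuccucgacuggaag
miR-30e-5p: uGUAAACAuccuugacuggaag

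The let-7 family is shown because 4 of its 9 tested members were called, all of them higher.
let-7a-5p: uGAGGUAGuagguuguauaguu
let-7b-5p: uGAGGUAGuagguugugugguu
let-7c-5p: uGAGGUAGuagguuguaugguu
let-7d-5p: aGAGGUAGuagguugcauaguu
let-7e-5p: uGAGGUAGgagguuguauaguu
let-7f-5p: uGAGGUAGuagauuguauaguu
let-7g-5p: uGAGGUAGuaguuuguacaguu
let-7i-5p: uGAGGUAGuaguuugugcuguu
miR-98-5p: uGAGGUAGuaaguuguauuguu

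Among the miRNAs that fell, miR-29b-3p, which targets messenger RNAs of collagens and other matrix proteins, had the smallest adjusted p. Its log2 signals were 5.79 and 6.41 with WT, 6.31 and 6.22 with MT, and 7.25 and 7.07 in the controls. All 4 samples with a protein lay well below both controls, and WT replicate 1 was the lowest (log2 difference -0.97, 95% interval -1.41 to -0.54, adjusted p = 0.028, a fold of 1.96). Under the scanner software's total gene signal its sign turned, to 2.87. That column read 1169 and 1224 on the 2 technical arrays of WT replicate 1 and 1632 and 59.7 on those of WT replicate 2. It read 1023 and 1132 with MT, and 185 and 128 in the controls. The spot means of the brightest probe, in the same order, were 56.8 and 53.7, 99.8 and 78.4, 73.1 and 67.0, and 248 and 169. Why the 2 measures went opposite ways was not tested. The other members of its family were not called. miR-29a-3p gave 0.06 (adjusted p = 0.795) and miR-29c-3p -0.37 (adjusted p = 0.112).

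miR-21-5p, an abundant miRNA of mesenchymal cells that targets Pdcd4, was the brightest miRNA that fell. Its levels were 10.84 and 11.58 with WT, 11.15 and 11.63 with MT, and 12.02 and 12.18 in the controls. The induced samples did not overlap the controls, but WT replicate 2 and MT replicate 2 lay nearer to them than did the replicate 1 samples (log2 difference -0.80, 95% interval -1.35 to -0.26, adjusted p = 0.0395, 1.75-fold lower). The 2 proteins gave -0.89 with WT and -0.71 with MT.

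The 2 largest differences belonged to miRNAs with scattered induced samples. miR-19b-3p, a member of the miR-17~92 cluster, measured 4.34 and 5.48 with WT, 4.87 and 5.29 with MT, and 5.95 and 6.15 in the controls. The lowest value was WT replicate 1, and the miRNA was detected on 3 of the 6 arrays with a protein (log2 difference -1.06, 95% interval -1.76 to -0.36, adjusted p = 0.0395). miR-301a-3p, a member of the miR-130 family, measured 4.93 and 5.96 with WT, 5.17 and 5.86 with MT, and 6.42 and 6.57 in the controls. Here too the replicate 1 samples of both proteins were the lowest and replicate 2 samples the closest to control (log2 difference -1.02, 95% interval -1.71 to -0.32, adjusted p = 0.0395). Its relative with the same seed, miR-130a-3p, which restrains adipocyte formation, was also lower, by a log2 difference of -0.49 (adjusted p = 0.0482).

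The lower set further held miR-26b-5p (-0.67), miR-30e-5p (-0.61), miR-34b-5p (-0.60), miR-148a-3p (-0.58), miR-31-3p (-0.52), miR-16-5p (-0.52) and miR-15a-5p (-0.51), each as a log2 difference that passed the threshold. miR-26b-5p measured 6.33 and 6.76 with WT, 6.45 and 6.69 with MT, and 7.14 and 7.32 in the controls. The 4 induced samples fell below both controls, and for each protein replicate 2 was the higher one. miR-148a-3p, which targets the DNA methyltransferase Dnmt1, measured 5.92 and 6.30 with WT, 5.94 and 6.21 with MT, and 6.69 and 6.65 in the controls, again with no overlap. miR-106b-5p, miR-130a-3p, miR-146b-5p, miR-218-5p and miR-34c-5p differed by -0.49 to -0.39, and miR-542-3p and miR-195-5p completed the set.

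Signal limits some of these. miR-542-3p, from the X-linked cluster of miR-322 and miR-503, stood at the floor in WT replicate 1 and both MT samples, at 4.65 in WT replicate 2 and at 4.88 and 5.04 in control, and was detected on 2 of 6 arrays with a protein (adjusted p = 0.0326). miR-195-5p, of the miR-15 and miR-16 family, was detected on both control arrays at 4.43 and 4.24 and on none with a protein (adjusted p = 0.0395). It gets no fold, because its control mean of 4.33 was under 4.52, the mean over the induced samples of the lowest level detected on their arrays. miR-30e-5p was detected on 3 of the 6 arrays with a protein, miR-301a-3p and miR-324-3p on 4 and miR-106b-5p on 5. The other 39 called miRNAs were detected on all 8 arrays. Under normexp background correction, a different way of removing background, 13 of the 18 lower miRNAs stayed below 0, and miR-542-3p, miR-30e-5p, miR-106b-5p, miR-195-5p and miR-218-5p turned to between 0.06 and 0.14.

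Among the miRNAs that rose, miR-574-5p had the largest difference. Its log2 signals were 7.27 and 7.19 with WT, 7.36 and 7.12 with MT, and 6.23 and 6.71 in the controls. The 4 induced samples lay close together and above both controls, which differed from each other by more than the induced samples did (log2 difference 0.76, 95% interval 0.39 to 1.13, adjusted p = 0.028, a fold of 1.69). Its means were 7.23 ± 0.10 (SD, n = 4) against 6.47 ± 0.34 (SD, n = 2). The proteins gave 0.75 with WT and 0.77 with MT, and the other arm of the hairpin, miR-574-3p, gave 0.41 without passing the threshold (adjusted p = 0.118).

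miR-455-3p, encoded within the cartilage collagen gene Col27a1, measured 5.79 and 5.89 with WT, 6.26 and 5.73 with MT, and 5.11 and 5.32 in the controls. MT replicate 1 was the highest and no induced sample reached down to the controls (5.92 ± 0.24 (SD, n = 4) against 5.22 ± 0.15 (SD, n = 2), log2 difference 0.70, adjusted p = 0.0326). Under the total gene signal it gave -0.38. It was the only one of 4 tested cartilage miRNAs to pass. miR-140-3p gave 0.32 (adjusted p = 0.207), miR-140-5p -0.23 (adjusted p = 0.29), the pair being the arms of the best known cartilage miRNA. The list's median was 0.34 against 0.11 over all miRNAs tested.

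miR-214-3p and miR-199a-5p are made from neighbouring hairpins on an antisense transcript of Dnm3 and mark mesenchymal cells. miR-214-3p measured 9.85 and 9.72 with WT, 10.13 and 10.03 with MT, and 9.38 and 9.21 in the controls. Both MT samples were above both WT samples and all 4 were above the controls (log2 difference 0.64, 95% interval 0.29 to 0.98, adjusted p = 0.0326). miR-199a-5p measured 9.46 and 9.24 with WT, 9.62 and 9.48 with MT, and 9.01 and 8.92 in the controls, again above control in every induced sample (log2 difference 0.49, 95% interval 0.17 to 0.80, adjusted p = 0.0366). The opposite arms did not pass. miR-199a-3p gave -0.22 (adjusted p = 0.182) and miR-214-5p 0.13 (adjusted p = 0.55). miR-199b-5p rose by a log2 difference of 0.38 (adjusted p = 0.0395). Of the 6 tested miRNAs of the list of miR-199, miR-214 and miR-21, 3 rose and 1, miR-21-5p, fell. Scaling over all mouse probes turned miR-199a-5p to -0.05 and miR-199b-5p to -0.16.

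Further rises of at least 1.5-fold were seen for miR-494-3p, miR-1187, miR-423-5p, miR-193b-3p, miR-181a-5p, miR-149-5p, miR-99b-5p, miR-328-3p, miR-202-3p and let-7b-5p. miR-202-3p, known from the gonads, had the tightest induced samples of these. It measured 6.83 and 6.87 with WT, 6.90 and 6.95 with MT, and 6.17 and 6.40 in the controls, so that the 4 induced values spanned less than the gap to the nearer control (log2 difference 0.60, 95% interval 0.33 to 0.87, adjusted p = 0.028). miR-494-3p, from the imprinted Dlk1 and Dio3 region, measured 6.45 and 6.15 with WT, 6.65 and 6.54 with MT, and 5.37 and 6.06 in the controls. WT replicate 2 lay just above control replicate 2 (log2 difference 0.73, 95% interval 0.21 to 1.25, adjusted p = 0.0412). miR-193b-3p, known from brown fat differentiation, measured 7.71 and 7.31 with WT, 7.73 and 7.58 with MT, and 6.95 and 6.91 in the controls, and its controls lay close together below all induced samples (log2 difference 0.65, 95% interval 0.32 to 0.99, adjusted p = 0.0326). miR-423-5p measured 5.98 and 5.75 with WT, 6.15 and 6.07 with MT, and 5.22 and 5.36 in the controls (log2 difference 0.70, 95% interval 0.37 to 1.03, adjusted p = 0.028), with no overlap.

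**Figure D2:**
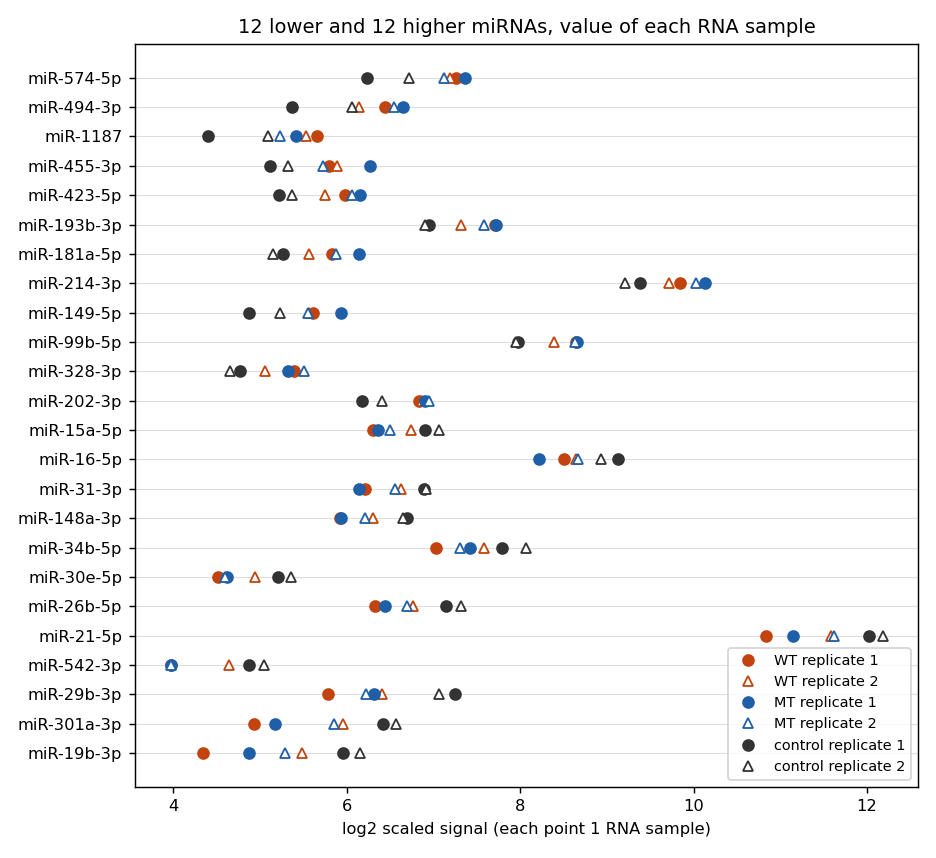
Level of the 12 lower and 12 higher miRNAs with the largest differences, as log2 scaled signal (horizontal axis), 1 point per RNA sample, coloured by group with replicate 1 filled and replicate 2 open. In every line the 4 samples with a protein lie on 1 side of both controls, and in miR-19b-3p, miR-301a-3p and miR-21-5p the replicate 1 samples of both proteins are the farthest from control.

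The 2 proteins were then compared with each other within a fit of all 3 groups. WT against MT gave 0 calls of 142 (0%), and 0 at an unadjusted p under 0.05, with a smallest adjusted p of 0.99. The interval of WT minus MT included 0 for all 46 called miRNAs, with a median half-width of 0.41 against a median absolute WT minus MT of 0.12. A difference between the proteins of up to about that half-width was therefore not detectable in a typical case, and a missing call does not show that the proteins act alike. Of the 28 higher miRNAs 27 had the larger difference with MT, and of the 18 lower ones 10 did. The same count over all 142 was not taken, so these counts are not read as a stronger response to MT. WT replicate 2, on the slide side of the controls, had the smallest median differences of the induced samples (0.43 over the 28 and -0.36 over the 18). Both proteins were compared with the same 2 controls. Taken alone against control, WT gave 0 calls with 40 miRNAs at an unadjusted p under 0.05, and MT 0 calls with 56. The smallest p-values of WT against MT belonged to miR-1892 (-0.46, 95% interval -1.02 to 0.09), miR-322-3p (0.35, 95% interval -0.07 to 0.78) and miR-669f-3p (-0.45, 95% interval -0.99 to 0.10), given as log2 WT minus MT. Among the 24 miRNAs with the largest pooled differences the proteins lay closest for miR-574-5p, at 0.75 with WT and 0.77 with MT. They lay farthest apart for miR-542-3p, at -0.65 with WT and -0.99 with MT, values that the floor limits, and for miR-181a-5p, at 0.49 with WT and 0.80 with MT. In row 2 of the slide, which held MT and control, the differences are those of MT against control.

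**Figure D3:**
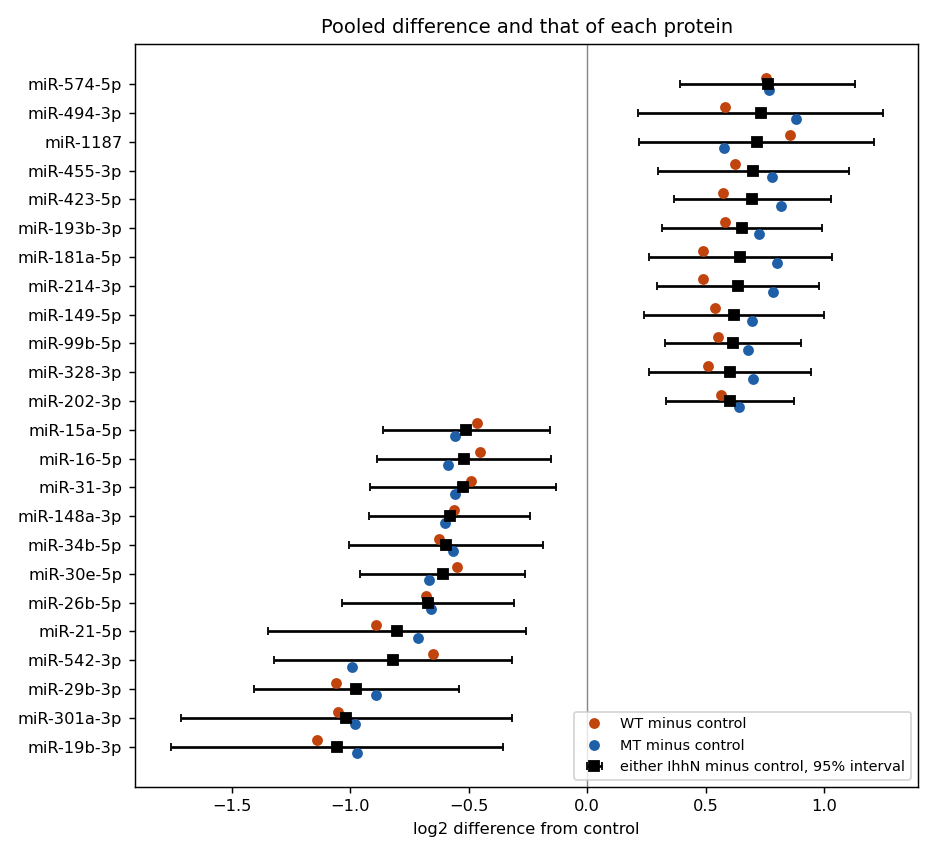
Log2 difference from control (horizontal axis) of the same 24 miRNAs for either IhhN with its 95% interval (black squares, 4 against 2 RNA samples) and for WT and MT separately (coloured points, 2 against 2). WT and MT points lie on the same side of 0 in every line and within the pooled interval. miR-542-3p stood at the floor in WT replicate 1 and both MT samples, so its differences are limited by the floor.

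The let-7 family, which represses growth-promoting genes such as Hmga2 and Lin28, was examined member by member. let-7c-5p, the brightest of those called, measured 12.61 and 12.53 with WT, 12.82 and 12.53 with MT, and 11.98 and 12.16 in the controls. Every induced sample was above both controls (log2 difference 0.56, 95% interval 0.25 to 0.86, adjusted p = 0.0326). let-7b-5p measured 11.92 and 11.86 with WT, 12.13 and 11.94 with MT, and 11.27 and 11.45 in the controls (log2 difference 0.60, 95% interval 0.31 to 0.89, adjusted p = 0.028), and again the groups did not overlap. let-7a-5p rose by 0.44 (adjusted p = 0.0366) and let-7d-5p by 0.38 (adjusted p = 0.0482), although both turned negative, to -0.10 and -0.16, under scaling over all mouse probes, and without scaling let-7a-5p, let-7c-5p and let-7d-5p gave -0.14, -0.02 and -0.19. The other 5 members did not pass. let-7e-5p gave 0.23, let-7f-5p 0.07, miR-98-5p 0.02, let-7i-5p -0.18 and let-7g-5p -0.25. The called and uncalled members differ at few bases. let-7a-5p and let-7f-5p differ at 1 position (G12A, let-7a-5p first, counted from the 5′ end) and let-7a-5p and let-7e-5p at 1 (U9G), and whether their probes share signal was not tested.

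Members with the same seed went opposite ways in 2 families. miR-148b-3p measured 6.51 and 6.39 with WT, 6.73 and 6.52 with MT, and 5.95 and 6.12 in the controls and was higher (log2 difference 0.50, 95% interval 0.20 to 0.81, adjusted p = 0.0326), while miR-148a-3p was lower by a log2 difference of -0.58. The 2 sequences differ at 2 positions (U9C and C10U, miR-148b-3p first) and have the same share of G and C, 40.9%. miR-152-3p, the remaining member, gave -0.37 (adjusted p = 0.0789). In the second family miR-93-5p measured 7.01 and 6.99 with WT, 7.31 and 7.07 with MT, and 6.46 and 6.63 in the controls and was higher (log2 difference 0.55, 95% interval 0.24 to 0.86, adjusted p = 0.0326), while miR-106b-5p, from the same primary transcript in an intron of Mcm7, measured 5.28 and 5.42 with WT, 5.47 and 5.39 with MT, and 5.78 and 5.97 in the controls and was lower (log2 difference -0.48, 95% interval -0.76 to -0.21, adjusted p = 0.0326). The first of these was above control in all 4 induced samples and the second below in all 4, but miR-106b-5p turned to 0.089 under normexp and miR-93-5p to -0.025 without scaling. miR-20a-5p (-0.29) and miR-20b-5p (-0.22) did not pass.

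Among the 118 tested miRNAs with a matched sequence, 19 seeds were carried by 2 or more. These seeds held 54 of the miRNAs, and 15 of the seeds had a called member. The calls went 1 way in 13, 6 higher and 7 lower, but a single called member can only go 1 way. Of these 13, more than 1 counted member was called in let-7 (4 higher) and in miR-15 and miR-16 (2 lower). The only other was miR-130a and miR-301a (2 lower). miR-195-5p and miR-34c-5p, both called lower, and miR-199b-5p, called higher, had no matched sequence and are not counted. The miR-15 and miR-16, miR-34 and miR-199 families can therefore hold more calls than given here. miR-15a-5p and miR-16-5p, which target Bcl2 and cyclins, were both lower, and miR-15b-5p with the same seed gave 0.41 without passing (adjusted p = 0.0696). miR-322-5p gave -0.70 with widely scattered samples (adjusted p = 0.0932). miR-30e-5p was lower while miR-30a-5p, which differs from it at 1 position (C13U, miR-30a-5p first), gave -0.04 (adjusted p = 0.833). The lower call of miR-30e-5p depended on the processing. It turned to 0.14 under normexp, and under the total gene signal it was called higher (log2 difference 2.64, limma adjusted p = 1.7e-04).

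**Figure D4:**
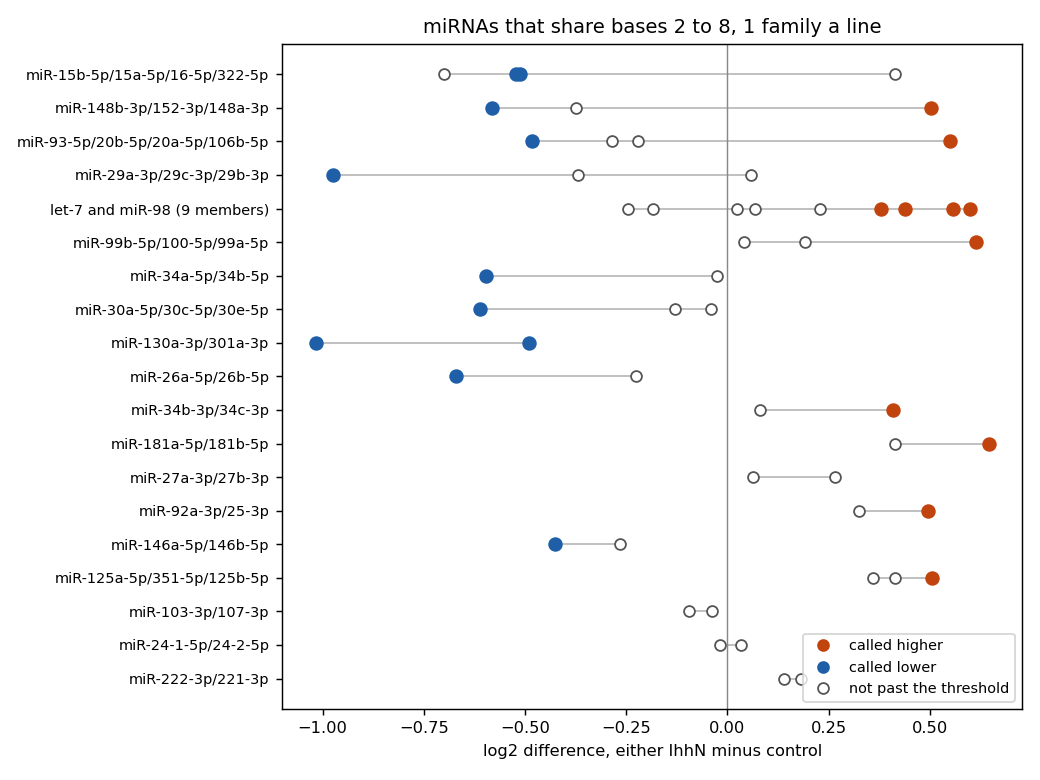
Log2 difference of either IhhN minus control (horizontal axis) for the 54 tested miRNAs that share bases 2 to 8 with another, 1 family a line, ordered by the spread between members. Only the miR-148b and miR-93 lines hold a called member on each side of 0, and the miR-130a and miR-301a line holds calls for all its members.

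Genomic neighbours were compared in the same way, with RefSeq positions on GRCm38.p6. Tested miRNAs with a matched sequence that lay within 10 kb on 1 strand formed 27 groups. Of these, 22 held a called member and 4 held calls in both directions. The miR-25, miR-93 and miR-106b cluster (chr5:138165332-138165807, minus strand) gave 0.32 (adjusted p = 0.0617), 0.55 and -0.48. The miR-17~92 cluster (chr14:115044183-115044496, plus strand) gave -0.29 for miR-20a-5p, -1.06 for miR-19b-3p and 0.50 for miR-92a-3p, and its X-linked paralog shares the last 2. miR-92a-3p measured 7.44 and 7.44 with WT, 7.51 and 7.49 with MT, and 6.93 and 7.02 in the controls, all induced samples above control (log2 difference 0.50, 95% interval 0.25 to 0.74, adjusted p = 0.028). Scaling over all mouse probes turned it to -0.04. The miR-34b and miR-34c hairpins (chr9:51103044-51103632, minus strand), which are induced by p53, gave -0.60 for miR-34b-5p and 0.41 for miR-34b-3p, the 2 arms of 1 hairpin, -0.39 for miR-34c-5p and 0.08 for miR-34c-3p (adjusted p = 0.697). miR-34b-3p turned to -0.13 under scaling over all mouse probes and to -0.17 without scaling, so that both arms then lay below 0. Clusters with calls in 1 direction included miR-15a with miR-16 (chr14:61631936-61632096, minus strand), let-7b with let-7c (chr15:85706616-85707346, plus strand) and miR-99b with let-7e and miR-125a (chr17:17830194-17830840, plus strand). miR-16-5p also lies beside miR-15b-5p (0.41, not called) on chr3, and let-7c-5p beside miR-99a-5p (0.04, not called) on chr16. The array cannot assign such a mature miRNA to 1 locus. miR-99b-5p measured 8.65 and 8.39 with WT, 8.65 and 8.63 with MT, and 7.98 and 7.95 in the controls (log2 difference 0.61, 95% interval 0.33 to 0.90, adjusted p = 0.028), with WT replicate 2 nearest to control.

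Base composition moved with the result. The share of G and C in the mature sequence had a median of 52.2% over the 25 higher miRNAs with a sequence, 40.9% over the 15 lower ones and 47.6% over all 118. In the 41 miRNAs poorest in G and C, up to 40.9%, the median difference was -0.22 with 5 higher and 12 lower calls. The next 41, up to 52.2%, had a median of 0.12 with 9 higher and 3 lower calls. In the 36 richest, from 52.4%, the median was 0.41 with 11 higher and 0 lower calls. Across the 118 miRNAs, which come from the same 8 arrays and are not independent replicates, the difference and the share of G and C had a Pearson's r of 0.51. The same correlation taken for each RNA sample's deviation from the mean of all 6 was -0.48 and -0.36 for the controls, 0.39 and -0.08 for WT and 0.44 and 0.23 for MT. Mean level and difference had an r of 0.02 over the 142.

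With a straight line on the share of G and C taken out of each RNA sample, an alternative added after seeing the data, 12 of the 118 miRNAs passed, against 41 of 118 without that step, and all 12 were among the 46. They were let-7a-5p, let-7b-5p, let-7c-5p, let-7d-5p, miR-1187, miR-125a-5p, miR-148b-3p, miR-181a-5p, miR-202-3p, miR-423-5p and miR-574-5p, all higher, and miR-29b-3p, lower. With it the let-7 differences became 0.55 to 0.72 and that of miR-29b-3p -0.67. Why base composition moved with the groups was not tested.

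**Figure D5:**
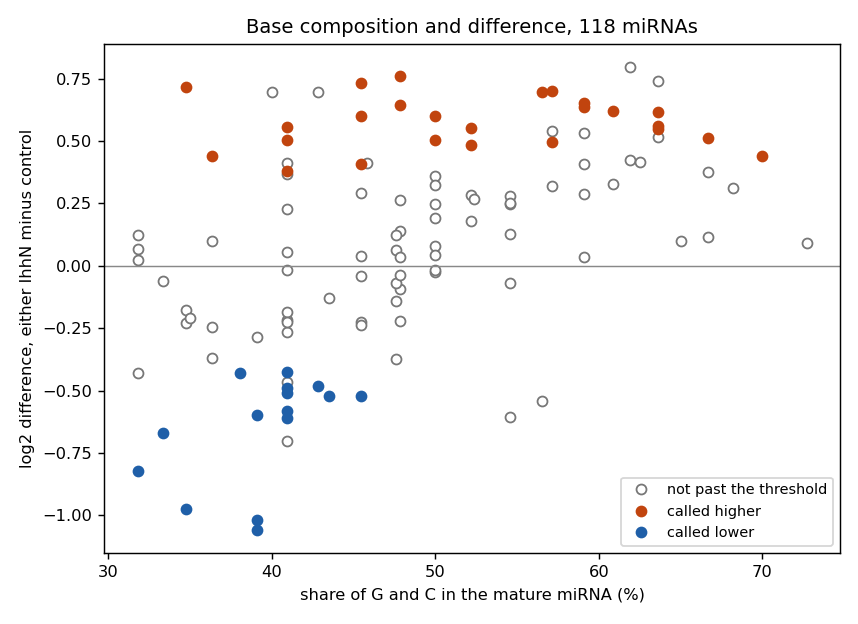
Log2 difference of either IhhN minus control (vertical axis) against the share of G and C in the mature miRNA (horizontal axis, %), 1 point for each of the 118 tested miRNAs with a sequence. No miRNA called lower has a share above 45.5%, and all calls from 52.4% upward were higher.

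Lists of miRNAs of the pathway and of skeletal cells were read as counts beside the 142, of which 28 rose, 18 fell and the median was 0.11. The lists name hairpins and take in both arms, so an arm can be counted that is not the one known for the target. Of 7 tested arms of hairpins whose miRNAs are reported to target hedgehog components, 3 rose and 0 fell, with a median of 0.36. They were miR-125a-5p, miR-214-3p and miR-324-3p, the last being the opposite arm of miR-324-5p. miR-125a-5p measured 9.50 and 9.44 with WT, 9.50 and 9.56 with MT, and 9.05 and 8.94 in the controls, with the induced samples together above control (log2 difference 0.50, 95% interval 0.26 to 0.75, adjusted p = 0.028). miR-212-3p, which targets Ptch1, gave -0.61 (adjusted p = 0.0938), and miR-324-5p, which targets Smo and Gli1, gave 0.33 (adjusted p = 0.214). Under scaling over all mouse probes miR-125a-5p and miR-324-3p turned to -0.03 and -0.06.

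Of 6 tested arms of hairpins whose miRNAs are reported to target the bone factor Runx2, miR-34c-3p and miR-135a-1-3p included as opposite arms, 0 rose and 2 fell, miR-34c-5p and miR-218-5p, with a median of -0.10. miR-34c-5p measured 7.76 and 7.99 with WT, 7.85 and 7.89 with MT, and 8.28 and 8.25 in the controls, all induced samples lower (log2 difference -0.39, 95% interval -0.65 to -0.13, adjusted p = 0.0395). Of 9 miRNAs of adipocyte commitment 0 rose and 2 fell, miR-130a-3p and miR-31-3p, with a median of -0.04. The miR-17~92 cluster and its paralogs had 2 higher and 2 lower of 7 (median -0.22), the hairpins of the miR-15 and miR-16 family 0 higher and 3 lower of 6 (-0.44, with miR-322-3p of another seed among them), the miR-34 family 1 higher and 2 lower of 5 (-0.02) and the miR-29 hairpins 0 higher and 1 lower of 4 (-0.16, with miR-29b-1-5p of another seed among them). The let-7 family's median was 0.23 over 9.

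In the remaining lists 1 member at most passed. The miR-30 family had 1 lower of 5 (median -0.13), the miR-26 family 1 lower of 2 (-0.45), the miR-322, miR-503 and miR-542 cluster 1 lower of 7 (-0.43), the miR-99 and miR-100 family 1 higher of 3 (0.19) and the miR-181 family 1 higher of 2 (0.53). No member passed among the 7 of the miR-23, miR-24 and miR-27 clusters, whose smallest p belonged to miR-27a-3p at 0.27 (adjusted p = 0.192), or for miR-221-3p at 0.14 (adjusted p = 0.394) and miR-222-3p. The nerve cell marker miR-128-3p gave 0.12 (adjusted p = 0.495). These lists overlap in members and share the same 6 RNA samples.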

How the data were processed

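Total RNA from 6 samples was labelled with Cy3 and hybridised to 8 one-colour Agilent miRNA arrays on 1 slide. The deposited scanner files hold intensity values of 13715 spots per array, from Agilent Feature Extraction (10.7.1.1 per the file headers, 9.1 per the submitters' processing notes). The authors' background-subtracted intensity was used, and the series' value table held the same values within 0.005, with column medians from -0.09 to 2.31. The number of arrays, not counting depth, limits the precision, and no spot was saturated. Spots marked as outliers were left out, spots of a probe averaged, arrays scaled by their 75th percentile over the 174 probes detected on all arrays (over 50% of spots well above background), a floor set and log2 taken. The 2 technical arrays of a WT sample were averaged, the brightest probe stood for a miRNA, and lmFit and eBayes of limma 3.58.1 in R 4.3.3 were run with Benjamini-Hochberg adjustment. miRNAs detected on all arrays of 1 group or more were tested. Replicate 1 and 2 were numbered in the labels with no statement that a number marks a shared batch. The code was tested on simulated data. Named miRNAs were up to 12 per direction by size among those past the threshold with groups that did not overlap, up to 4 called members per list (or the one with the smallest p), the 3 smallest p of WT against MT, and up to 3 detected on control arrays alone. Other miRNAs are named for a family, arm or cluster they share and were chosen after their values were seen. Members and lists were chosen with earlier results of these data known. Alternatives covered scaling (none included), background, floor, filter, probes, spots, technical arrays, block, groups, variance, slide position and each sample. Sequences were those of RefSeq (GRCm38.p6).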

Additional observations from a re-analysis of the deposited data

Results flagged for a closer look

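Among the 48 named miRNAs, 4 had 1 induced sample set apart from the other 3 by a gap that chance gives in about 1 in 20 groups. At that rate a few of 48 are set apart by chance alone, so the count of 4 is not read as a result. MT replicate 1 was high for miR-149-5p, at a log2 signal of 5.94 against 5.56 to 5.61 in the other 3 samples with a protein. WT replicate 2 was low for miR-99b-5p (8.39 against 8.63 to 8.65) and for let-7d-5p (10.52 against 10.71 to 10.74), in both cases toward the controls. WT replicate 2 was also apart for miR-542-3p, at 4.65, while the other 3 samples stood at the floor of 3.97. The rate of 1 in 20 does not hold for values fixed at the floor. WT replicate 2 is the induced sample on the slide side of the controls. No miRNA differed between WT and MT after adjustment. Of 39 viral miRNAs on the arrays, 3 were detected on at least 1 array and 0 on all arrays with a protein and no control array.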

How the results depend on the processing

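The pooled count of 46 calls lay between 36 and 53 under quantile normalization (43), normexp (53), 0.5 times the floor (38), detection on all 8 arrays (46), the mean of all probes (42), either technical array alone (36 and 43), all arrays with a random block (38) and an intensity trend (43). It was 0 with the 75th percentile over all mouse probes, with no filter, with outlier spots kept, with 3 groups, with a term for slide side and without the 2 arrays in column 1, and 4 with gTotalGeneSignal, which gives a sum per miRNA. Leaving out single RNA samples gave 0 to 55 calls, 0 for every sample except WT replicate 2 (55), with the lone control left after removing the other assumed to vary like the induced samples. It gave 0 to 1 calls for WT against MT, the 1 without MT replicate 2. Removing the share of G and C left 12. Without scaling there were 51. The median of 0.11 became -0.37 under the 75th percentile over all mouse probes and -0.43 without scaling. The split of calls, 60.9% higher, was 86.8% under normexp, 53.5% under quantile normalization 25% under gTotalGeneSignal and 0% without scaling. For miR-29b-3p gTotalGeneSignal read 1632 and 59.7 on the technical arrays of WT replicate 2. On the other induced arrays it read 1023 to 1224, and in the controls 185 and 128. The replicate block gave 49 calls, 44 of them shared. Replicate numbers had deviations correlated at 0.02 (WT and MT), 0.39 (WT and control) and -0.46 (MT and control) over 142 miRNAs. With 2 samples a group, these values cannot tell whether a number marks a shared batch. Position was partly shared, since both arrays in column 1 carried replicate 1 RNA, 1 of WT and 1 of MT. Their negative control spots had the widest spread, 6.63 and 5.61 signal units.

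Signs turned under the 75th percentile over all mouse probes for miR-92a-3p (-0.040), let-7a-5p (-0.10), let-7d-5p (-0.16), miR-34b-3p (-0.13), miR-199a-5p (-0.051), miR-199b-5p (-0.16), miR-125a-5p (-0.032) and miR-324-3p (-0.061). They turned under normexp for miR-542-3p (0.060), miR-30e-5p (0.14), miR-106b-5p (0.089), miR-195-5p (0.09) and miR-218-5p (0.093). Under gTotalGeneSignal they turned for miR-455-3p (-0.38), miR-181a-5p (-0.10), miR-29b-3p (2.87), miR-30e-5p (2.64, called higher, limma adjusted p = 1.7e-04) and miR-324-3p (-0.49). With the share of G and C removed they turned for miR-324-3p (-0.055). Without scaling they turned for miR-92a-3p (-0.079), miR-93-5p (-0.025), let-7c-5p (-0.018), let-7a-5p (-0.14), let-7d-5p (-0.19), miR-34b-3p (-0.17), miR-199a-5p (-0.089), miR-199b-5p (-0.20), miR-125a-5p (-0.071) and miR-324-3p (-0.13). The cause was not tested. The fits with side of the slide, 3 groups or a sample left out kept the direction of all 46. They could not do otherwise, since the groups did not overlap for any of the 46. Signals near the detection floor limit the 7 called miRNAs not detected on all 8 arrays.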

Other observations

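Besides the 40 called miRNAs that the naming rule took in, 6 passed the threshold. miR-484, miR-296-5p, miR-320-3p, miR-1904 and miR-148b-3p rose, by log2 differences of 0.56, 0.51, 0.44, 0.55 and 0.50. miR-146b-5p, a feedback regulator of inflammatory signalling, fell by 0.43 on the log2 scale. miR-320-3p measured 7.17 and 7.05 with WT, 7.14 and 7.15 with MT, and 6.80 and 6.59 in control.

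Arms of 1 hairpin differed in several cases. miR-31-3p fell by 0.52 on the log2 scale while miR-31-5p gave 0.28 (adjusted p = 0.182). miR-542-3p was at the floor in WT replicate 1 and both MT samples, so it has no exact difference, and the value was 0.060 under normexp, while miR-542-5p gave 0.25 (adjusted p = 0.182). miR-503-5p, in the same cluster, had widely spread controls, at 5.69 and 7.03. miR-7a-5p and miR-101a-3p were detected on both control arrays and on no array with a protein. They get no fold, since their control means of 4.21 and 4.03 were under 4.53 and 4.52, their bounds in the samples with a protein.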
